A study of Mus musculus with 12 samples.

Results

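The 38 genes described here encode Wnt ligands, Frizzled receptors, secreted Frizzled-related proteins and Dickkopf proteins, and they were taken by symbol from a table of 24062 genes counted in mouse hearts. All rows whose symbol begins with Wnt, Fzd, Sfrp or Dkk followed by a digit were included, together with Frzb, the gene of the third Frizzled-related protein. Of these, 29 had 10 or more counts in at least 3 libraries and were tested, among 15842 such genes in all: 12 of 19 ligands, 10 of 10 receptors, 5 of 5 genes of the Sfrp and Frzb class and 2 of 4 Dickkopf genes. The other 9, Wnt1, Wnt3, Wnt3a, Wnt7a, Wnt8a, Wnt8b, Wnt10a, Dkk1 and Dkk4, had at most 83 counts each over all 12 hearts and were not tested.

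Wnt proteins are secreted lipid-modified ligands that bind Frizzled receptors on the cell surface. With the co-receptors Lrp5 and Lrp6 they stabilise beta-catenin, which enters the nucleus and acts with TCF and LEF factors, and with other co-receptors such as Ror1, Ror2 and Ptk7 they act on cell polarity and calcium without beta-catenin. Secreted Frizzled-related proteins bind Wnts outside the cell, and Dickkopf proteins bind Lrp5 and Lrp6. In the heart the pathway is best known for its stage-dependent roles in cardiac specification, outflow tract and valve formation, and for its reactivation in injury and fibrosis.

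Hearts of 12 mice in 4 groups of 3 were sequenced, each as 1 library of polyadenylated RNA. LEMD2 is a protein of the inner nuclear membrane. The WT and KI/KI mice were 2 months old, and KI/KI mice carried the Lemd2 c.T38>G change, which replaces a leucine by an arginine, in both alleles of every cell. The floxed and cKO hearts were from postnatal day 1 (P1). Floxed mice had loxP sites around exon 1 of both Lemd2 alleles and no Cre, and cKO mice had the same alleles and a Cre driven by the Myh6 promoter, which is active in cardiomyocytes, so the other cells of those hearts kept Lemd2. The adult mice carried neither the floxed allele nor Cre.

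Libraries held between 37063669 and 44789753 counts. A floor of 3 counts corresponded to between 0.0603 and 0.0963 CPM (a gene's counts relative to the TMM-scaled total of its library), a limit that covers counting error only. Lemd2 was at 6.63, 13.1 and 11.3 CPM in the cKO hearts and between 24.4 and 25.3 CPM in the floxed hearts. In KI/KI hearts it was between 24.8 and 25.6 CPM and in WT hearts between 31.9 and 34.8 CPM. Cardiomyocyte markers were high in all 12 hearts, at summed levels from 27688 to 72149 CPM. Libraries that stood apart within their group were KI/KI 5, with the highest fibroblast and atrial marker sums of the adult hearts, and cKO 6, with the lowest atrial and the highest proliferation sum of the cKO hearts. Counts of Y-linked genes were near 0 in cKO 4, unlike the other 11 hearts. Airway markers such as Scgb1a1 were found in WT 3, KI/KI 4, floxed 1 and 2 and cKO 4 and 6. Sftpc, which marks lung alveoli, did not exceed 0.34 CPM, but other lung markers were higher. Sftpb reached 3.71 CPM (floxed 2) and Sftpa1 3.87 CPM (WT 3). Ager was between 1.98 and 4.32 CPM in the P1 hearts and at most 0.458 CPM in the adult hearts. In whole hearts, fewer cells of a type and less RNA per cell cannot be told apart.

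To set genes against each other, CPM were divided by the annotated exon length in kilobases (CPM per kb). Among the ligands of WT hearts, Wnt5a, a ligand known mainly for signalling without beta-catenin, had the highest level at 3.16 ± 0.28 CPM per kb (SD, n = 3). Wnt9a followed at 2.19 ± 0.12 (SD, n = 3), and the 3 hearts of the one did not overlap those of the other. Wnt5b, Wnt2b and Wnt11 came next, at 1.41, 1.41 and 1.25 CPM per kb, and neighbours in that order overlapped. Wnt9b was at 0.484 CPM per kb and each remaining ligand at 0.252 or less. In floxed hearts Wnt5a, Wnt5b and Wnt9a, at 2.21, 2.00 and 1.93 CPM per kb, did not differ beyond their spread between neighbours.

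Fzd4, the receptor for Norrin as well as Wnts in endothelium, was the most abundant receptor gene of WT hearts at 13.1 ± 2.06 CPM per kb (SD, n = 3), ahead of Fzd6 at 8.30 ± 0.90 and Fzd7 at 4.63 ± 0.34. In floxed hearts Fzd1 came first at 11.6 ± 0.57 CPM per kb (SD, n = 3), and Fzd6, Fzd4 and Fzd2, at 9.34, 9.25 and 8.76, overlapped between neighbours. Fzd10 was the lowest receptor in WT hearts at 0.0540 CPM per kb. Dkk3, the divergent Dickkopf that does not act as a classic Lrp6 antagonist, was the most abundant of all 38 genes per length in both control groups, at 55.3 ± 8.88 CPM per kb in WT and 47.2 ± 7.32 in floxed hearts (SD, n = 3 each). It made up 99.8% of the Dickkopf sum in WT hearts. Dkk1 had at most 5 counts in any heart.

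**Figure D1:**
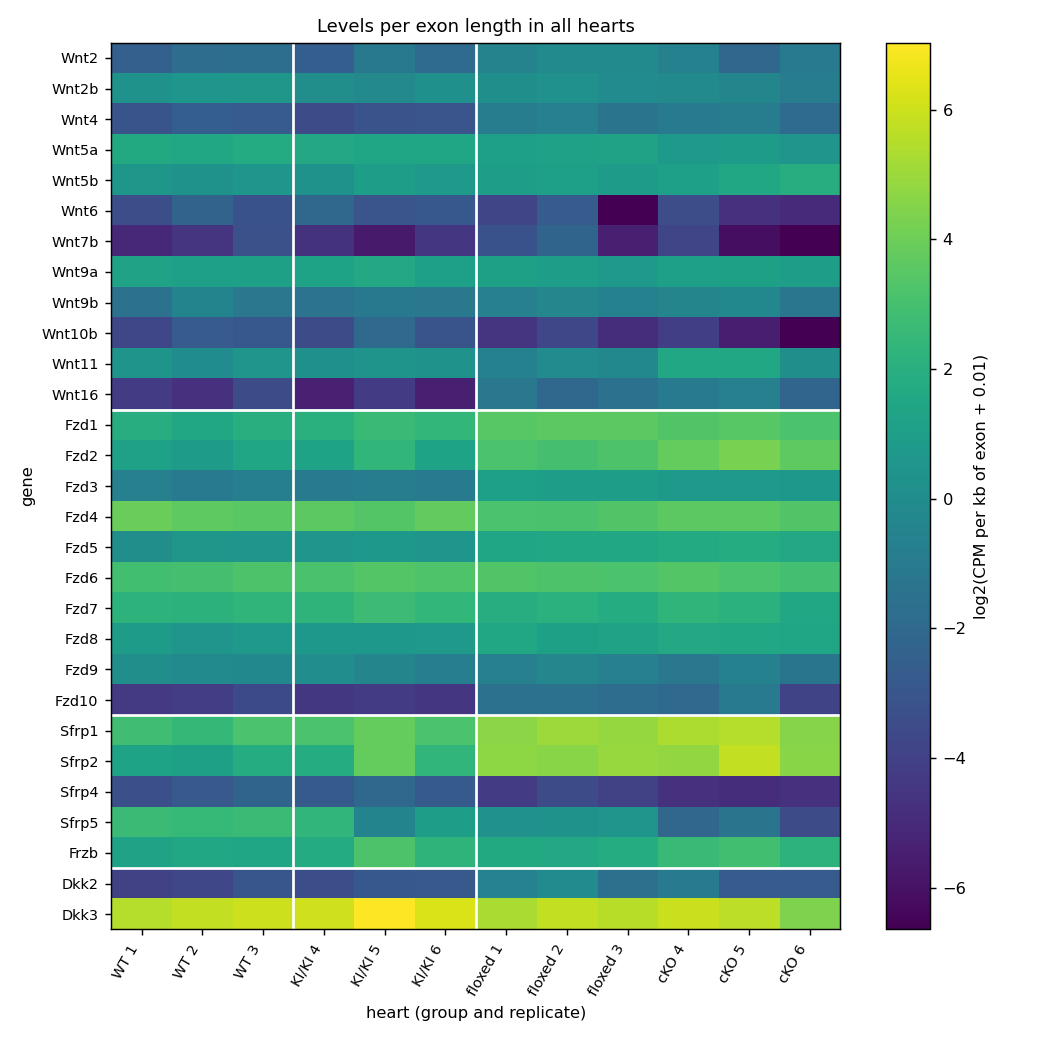
Levels of the 29 tested genes (rows, by class and separated by white lines: ligands, receptors, Sfrp and Frzb, Dickkopf) in each of the 12 hearts (columns), as log2 of CPM per kb of exon plus 0.01. Dkk3 is the brightest row in 10 of 12 hearts (Sfrp2 is brighter in cKO 5 and cKO 6), and Fzd1, Fzd2, Sfrp1 and Sfrp2 are brighter in all 6 P1 hearts than in all 6 adult hearts.

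The widest differences among these genes were between the control hearts of the different ages. Against P1 floxed hearts, 21 of 29 tested members passed an adjusted p of 0.05 in adult WT hearts with edgeR's quasi-likelihood test, 7 of them higher and 14 lower. Over all 15842 genes 30.7% were higher and 32.2% lower, and 72.4% of the members were called in either direction. With a fold change above 2 required as well, 3 members were higher and 11 lower, where the background was 13.4% higher and 14.0% lower. The 3 adult hearts were all above or all below the 3 P1 hearts in 23 of 29 members, against 69.7% of all genes. The median log2 fold change of the 29 members was -0.49, against -0.05 over all genes. Age, the floxed allele, the strain background and the collection of the hearts cannot be told apart in this comparison. Of the 22 members with 10 or more counts in all 6 hearts, 16 were called, 5 higher and 11 lower. The other 5 called members, Dkk2, Fzd10, Sfrp4, Wnt10b and Wnt16, had fewer counts in some hearts. Fzd10 and Wnt16 passed the filter mainly through the P1 hearts, and Sfrp4 and Wnt10b mainly through the adult hearts, the ages where they were higher. All 5 are also in the counts by fold change and by overlap and in the median given above.

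Most receptor genes were lower in the adult hearts. Fzd1 was at 15.2, 11.7 and 16.8 CPM in WT and 46.1, 50.1 and 50.2 CPM in floxed hearts. Fzd2, a receptor of Wnt5a among others, was at 8.35, 6.81 and 9.60 CPM in WT and 32.9, 29.2 and 34.2 CPM in floxed hearts. Fzd3, known for its part in axon guidance and planar polarity, was at 7.83, 6.35 and 7.44 CPM in WT and 27.1, 24.9 and 25.3 CPM in floxed hearts. In all 3 genes the groups were far apart, with log2 fold changes of -1.74 (standard error 0.14), -1.96 (0.14) and -1.84 (0.11) and adjusted p-values of 1.95e-05, 1.44e-05 and 4.83e-06. Fzd5 fell from 19.1, 20.6 and 19.3 CPM in floxed to 7.38, 10.2 and 9.98 CPM in WT hearts, by 1.10 on the log2 scale. Fzd8 fell from 17.7, 13.0 and 13.8 CPM to 11.3, 8.24 and 10.04 CPM, by 0.59. Fzd10 fell from 1.13, 1.13 and 0.912 CPM to 0.128, 0.153 and 0.245 CPM, by 2.56, and rests on few reads. None of these 3 receptors overlapped between the groups either.

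Fzd4 and Fzd7 went the other way. Fzd4 was at 104, 82.8 and 77.8 CPM in WT and 61.0, 57.5 and 68.0 CPM in floxed hearts, a log2 difference of 0.50 ± 0.12 (SE), with an adjusted p of 0.00652. Fzd7 was at 20.4, 19.8 and 22.7 CPM in WT and 16.5, 19.3 and 16.1 CPM in floxed hearts, with a log2 fold change of 0.28 and an adjusted p of 0.0489 that was lost without any of the hearts but floxed 2. Without floxed 1, for instance, its log2 fold change was 0.24 and its adjusted p 0.143. Fzd6 and Fzd9 did not pass, with log2 fold changes of -0.17 and 0.48, although Fzd6 passed without WT 3 (adjusted p = 0.0454).

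Among the inhibitors the genes of the Sfrp and Frzb class moved in opposite directions. Sfrp2, which also acts on collagen processing, was at 5.17, 4.64 and 7.66 CPM in WT hearts and at 56.0, 52.7 and 65.3 CPM in floxed hearts. That is a 9.93-fold lower fitted level in the adult hearts, or -3.31 ± 0.20 in log2 units (SE), at an adjusted p of 8.15e-06. Sfrp1 was at 31.0, 23.8 and 38.8 CPM in WT and 110, 145 and 125 CPM in floxed hearts, a log2 fold change of -2.02 (standard error 0.19). Sfrp5, in contrast, was at 12.3, 10.96 and 12.2 CPM in WT and at 2.31, 2.44 and 2.63 CPM in floxed hearts, 4.79-fold higher in the adult hearts (2.26 ± 0.13 in log2 units, SE, with an adjusted p of 4.35e-06). Sfrp4 was at 0.385, 0.549 and 0.845 CPM in WT and 0.181, 0.327 and 0.233 CPM in floxed hearts, with a log2 fold change of 1.26 and an adjusted p of 0.0355 that was lost without WT 2, WT 3, floxed 1 or floxed 3, the highest being 0.119 without floxed 1. Frzb changed least, from 10.4, 9.68 and 11.4 CPM in floxed to 7.51, 8.97 and 8.48 CPM in WT hearts, with a log2 fold change of -0.34 and an adjusted p of 0.04005. That call was lost without WT 1, WT 3, floxed 1 or floxed 3, the highest adjusted p being 0.130 without WT 1. Dkk2 was at 0.193, 0.244 and 0.436 CPM in WT and 2.42, 3.60 and 1.19 CPM in floxed hearts, a fall of 3.01 on the log2 scale. Dkk3 did not pass, at a log2 fold change of 0.23.

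Ligand genes were called in both directions. Wnt5a was at 24.9, 22.5 and 26.8 CPM in WT and 16.2, 17.6 and 18.1 CPM in floxed hearts, a log2 difference of 0.51 ± 0.10 (SE), with an adjusted p of 0.00287. Its close relative Wnt5b went down, from 5.30, 5.65 and 4.99 CPM in floxed to 4.01, 3.36 and 3.82 CPM in WT hearts (log2 fold change -0.51, adjusted p = 0.0157), a call lost without WT 2 (adjusted p = 0.0614). The less abundant Wnt2, Wnt4 and Wnt16 were also lower in the adult hearts. Wnt2 was at 0.385, 0.641 and 0.682 CPM in WT and 1.56, 2.01 and 1.99 CPM in floxed hearts. Wnt4 was at 0.449, 0.671 and 0.600 CPM in WT and 2.22, 2.55 and 1.57 CPM in floxed hearts. Wnt16 was at 0.193, 0.122 and 0.355 CPM in WT and 1.88, 0.981 and 1.49 CPM in floxed hearts. Their log2 fold changes were -1.69, -1.87 and -2.66, and the groups did not overlap in any of them. Wnt11, a ligand of cardiac morphogenesis that signals mainly without beta-catenin, was at 5.55, 4.12 and 5.78 CPM in WT and 2.63, 4.01 and 3.37 CPM in floxed hearts (log2 fold change 0.62, adjusted p = 0.0338). Wnt10b was at 0.225, 0.488 and 0.436 CPM in WT and 0.113, 0.218 and 0.0849 CPM in floxed hearts (log2 fold change 1.45, adjusted p = 0.0397). The call of Wnt11 was lost without WT 1, WT 3, floxed 1 or floxed 3 (adjusted p up to 0.105, without floxed 1), and that of Wnt10b without WT 2, WT 3, floxed 1 or floxed 3 (adjusted p up to 0.122, without floxed 1). Wnt2b, Wnt6, Wnt7b, Wnt9a and Wnt9b did not pass, with log2 fold changes from -1.05 to 0.85. Wnt2b came closest (log2 fold change 0.37, adjusted p = 0.0538 in edgeR), and its groups did not overlap. It was called higher with limma-voom, with another scaling (RLE), with the lung covariate and without floxed 2. Wnt9b was called lower without WT 2.

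Summed over each class, the ligands overlapped between the control groups, at 10.7 ± 0.52 CPM per kb in WT and 10.6 ± 0.73 in floxed hearts (SD, n = 3 each). The receptor sum was 36.3 ± 2.29 CPM per kb in WT and 51.1 ± 0.85 in floxed hearts. The widest gap was in the Sfrp and Frzb sum, at 18.8 ± 2.71 CPM per kb in WT and 60.5 ± 4.38 in floxed hearts, and in floxed hearts 47.9% of it was Sfrp1 and 44.5% Sfrp2. Neither sum overlapped between these groups. Markers of other cell types moved in this comparison as well, and their part in it was not tested. Summed fibroblast markers were at 2042 to 2465 CPM in WT and 5142 to 5953 CPM in floxed hearts, with 4 of 8 called lower and 1 higher. By fold change alone, 4 of the 8 were higher in WT hearts and 4 lower. The collagen genes Col1a1, Col1a2 and Col3a1 had means of 227, 321 and 553 CPM in WT and 1032, 1248 and 2514 CPM in floxed hearts. Tcf21 was also lower in WT hearts. Dcn went the other way, with means of 794 CPM in WT and 290 CPM in floxed hearts. Pdgfra, Dpt and Lum had means of 93.2, 130 and 126 CPM in WT and 90.9, 118 and 116 CPM in floxed hearts. The sum of 7 epicardial markers was between 38.9 and 59.7 CPM in WT and 125 and 157 CPM in floxed hearts, and 5 of 7 were called lower.

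**Figure D2:**
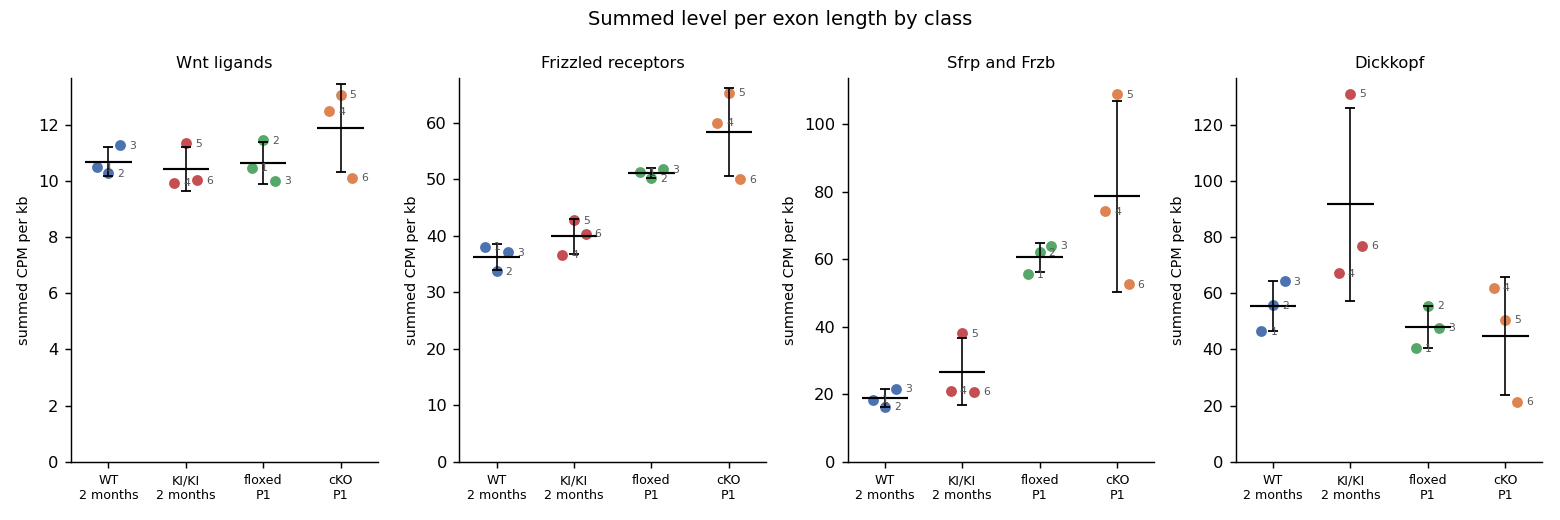
Summed CPM per kb of exon in each heart for the 4 classes of genes, all 38 included; points are hearts with their replicate number, lines are means and bars SD (n = 3). The ligand sums of WT and floxed hearts overlap, whereas every P1 heart lies above every adult heart in the receptor and in the Sfrp and Frzb panels.

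Deletion of Lemd2 in cardiomyocytes was compared with floxed hearts at P1. In cKO hearts 3 members were higher, Wnt11, Fzd2 and Frzb, and 1 was lower, Sfrp5, of 29 tested at an adjusted p under 0.05 in edgeR. Over all genes tested 8.79% were higher and 6.84% lower, and 13.8% of the members were called in either direction. With a fold change above 2 only Wnt11 and Sfrp5 remained among the members, where 2.69% of all genes were higher and 1.64% lower. Groups did not overlap in 10 of 29 members, 4 with cKO above and 6 with cKO below, against 38.7% of all genes. The median log2 fold change of the 29 members was -0.08, against -0.01 over all genes.

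Wnt11 measured 2.63, 4.01 and 3.37 CPM in the floxed and 12.2, 12.1 and 4.55 CPM in the cKO hearts. The first 2 cKO hearts were far above the floxed hearts, and cKO 6 was just above the highest of them. In log2 units it rose by 1.53 ± 0.39 (SE), with an adjusted p of 0.0423. Fzd2 was at 32.9, 29.2 and 34.2 CPM in floxed and at 51.6, 72.1 and 46.4 CPM in cKO hearts, a log2 difference of 0.82 ± 0.17 (SE), with an adjusted p of 0.0234. Frzb was at 10.4, 9.68 and 11.4 CPM in floxed and at 19.8, 23.6 and 15.0 CPM in cKO hearts, a log2 difference of 0.90 ± 0.18 (SE), with an adjusted p of 0.0213. In both genes all 3 cKO hearts were above all 3 floxed hearts. Sfrp5 was at 2.31, 2.44 and 2.63 CPM in floxed and at 0.422, 0.709 and 0.145 CPM in cKO hearts, a log2 difference of -2.51 ± 0.49 (SE), with an adjusted p of 0.0202. It was the only called member without 10 counts in all 6 hearts.

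These calls depended on single hearts. Sfrp5 kept an adjusted p under 0.05 without floxed 3 or any one cKO heart, and was at 0.0891 without floxed 1 and 0.0669 without floxed 2. The call of Frzb was lost without floxed 1, floxed 2 or cKO 5, at 0.104, 0.0824 and 0.0754. Fzd2 passed without cKO 4 or cKO 6 and had adjusted p-values of 0.104, 0.0886, 0.0537 and 0.0551 without floxed 1, floxed 2, floxed 3 and cKO 5. Wnt11 passed without cKO 6 alone, with a log2 fold change of 1.87, and had adjusted p-values from 0.0804 to 0.162 without each of the other 5 hearts. All 4 genes kept their direction in every case. Among the other settings, limma-voom did not call Wnt11, and the fit of all 12 libraries did not call Frzb.

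The 250 bases before the annotated start of 3 of these 4 genes are printed because these members are the ones that differed in cKO hearts and the TCF and LEF factors that act with beta-catenin bind a core of the letters CTTTGA. They come from RefSeq on GRCm38.p6, written 5′ to 3′ on the strand of the gene, and capitals mark that core, here in its reverse complement TCAAAG. Fzd2 had no entry. Wnt11 lies at chr7:98834862-98835111 on the plus strand (the upstream of its 2 annotated starts), Frzb at chr2:80447397-80447646 on the minus strand and Sfrp5 at chr19:42202253-42202502 on the minus strand.
Wnt11: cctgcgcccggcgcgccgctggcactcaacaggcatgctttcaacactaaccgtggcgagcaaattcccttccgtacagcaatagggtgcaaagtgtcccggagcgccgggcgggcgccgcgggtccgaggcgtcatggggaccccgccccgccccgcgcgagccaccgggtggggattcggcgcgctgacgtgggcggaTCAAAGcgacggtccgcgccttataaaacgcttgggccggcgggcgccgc
Frzb: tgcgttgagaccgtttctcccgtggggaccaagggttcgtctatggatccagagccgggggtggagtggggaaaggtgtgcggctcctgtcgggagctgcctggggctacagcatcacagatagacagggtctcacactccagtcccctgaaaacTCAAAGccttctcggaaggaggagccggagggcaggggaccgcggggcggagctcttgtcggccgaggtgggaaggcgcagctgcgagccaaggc
Sfrp5: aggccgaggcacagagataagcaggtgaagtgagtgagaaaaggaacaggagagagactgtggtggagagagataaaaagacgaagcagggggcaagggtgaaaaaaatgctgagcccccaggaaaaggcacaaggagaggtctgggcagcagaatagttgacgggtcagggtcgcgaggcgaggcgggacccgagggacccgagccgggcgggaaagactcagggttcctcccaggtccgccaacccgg
The core begins 50 bases before the start of Wnt11 and 95 bases before that of Frzb, and these letters are not in the window of Sfrp5. Windows of 26 of the 38 genes were counted, 29 in all, and any member window on a certain chromosome was left out of them. Of the 29, 5 held the core on either strand, those of Wnt11, Frzb, Fzd1, Wnt5b and Dkk1. Over all 32851 windows of this length, with no chromosome left out, 13.8% held it. The window of the other annotated start of Wnt11, chr7:98838595-98838844, held neither this core nor TATAAA. The letters TATAAA were in 4 of the 29 windows, among them that of Wnt11 at 29 bases before its start, and in 12.4% of all windows. A match of letters is a description of the sequence and not a bound site.

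The other members at P1 were not called. Fzd3 and Wnt5a came closest, with log2 fold changes of -0.32 and -0.42 and adjusted p-values of 0.0605 and 0.0661 in edgeR. Fzd3 was at 27.1, 24.9 and 25.3 CPM in floxed and at 21.5, 20.9 and 19.6 CPM in cKO hearts. Wnt5a was at 16.2, 17.6 and 18.1 CPM in floxed and at 13.3, 14.3 and 11.1 CPM in cKO hearts. In both genes every cKO heart was below every floxed heart, and DESeq2, upper quartile factors and the fit of all 12 libraries each called both lower. Sfrp1 was at 175, 199 and 101 CPM and Sfrp2 at 59.7, 120 and 53.2 CPM in cKO hearts, overlapping the floxed hearts. Without cKO 6, Sfrp1 and Fzd4 were called higher. The remaining uncalled ligands had log2 fold changes from -2.14 for Wnt7b, which rests on few reads, to 0.54 for Wnt5b. Wnt5b was at 5.57, 7.80 and 9.87 CPM in cKO hearts, and was called without cKO 4 (adjusted p = 0.0424). The most abundant ligand per length in cKO hearts was Wnt5b at 2.92 ± 0.81 CPM per kb (SD, n = 3), overlapping Wnt11 at 2.32 ± 1.06, and the most abundant receptor was Fzd2 at 15.5 ± 3.70.

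Values that moved with these results are given here, and their part in them was not tested. Atrial marker sums were at 1691 to 2898 CPM in floxed hearts and at 9551, 6604 and 2610 CPM in cKO hearts. Nppa, the 1 of 4 atrial markers called (higher), makes up most of these cKO sums, at 861, 1501 and 1248 CPM in floxed and 6845, 4845 and 2199 CPM in cKO hearts. The other 3, Myl7, Myl4 and Sln, were lower in cKO 6 than in any floxed heart, at 118, 287 and 6.56 CPM. In cKO 4 and cKO 5 the sum of these 3 was above that of every floxed heart. Of all 4 atrial markers, 3 had log2 fold changes above 0 and 1 below. Summed fibroblast markers were at 5142 to 5953 CPM in floxed and 6166, 6402 and 7492 CPM in cKO hearts. Of these 8, 5 had log2 fold changes above 0, 2 of them called, and 3 were below 0. Most of the sum was collagen. Col1a1, Col1a2 and Col3a1 had means of 1032, 1248 and 2514 CPM in floxed and 1523, 1615 and 2930 CPM in cKO hearts. Proliferation markers were at 251, 258 and 354 CPM in floxed and 402, 488 and 972 CPM in cKO hearts. Lung and airway marker sums were at 248, 414 and 2.61 CPM in floxed and 173, 3.73 and 22.9 CPM in cKO hearts, and Col2a1, which defines cartilage, was at 58.6, 77.4 and 1.99 CPM in floxed and 19.1, 3.42 and 1.38 CPM in cKO hearts. With the lung markers as a covariate Fzd2, Frzb and Sfrp5 were called and Wnt11 was not (log2 fold change 1.56, adjusted p = 0.0611). With the Y-linked genes as a covariate, which cKO 4 nearly lacks, Fzd2 was called, and Frzb, Sfrp5 and Wnt11 had adjusted p-values of 0.0503, 0.0516 and 0.0927. That fit also called Wnt5b higher and Dkk2 lower, as did the fit without cKO 4. Dkk2 had a log2 fold change of -1.26 and an adjusted p of 0.202 in edgeR with all 6 hearts.

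**Figure D3:**
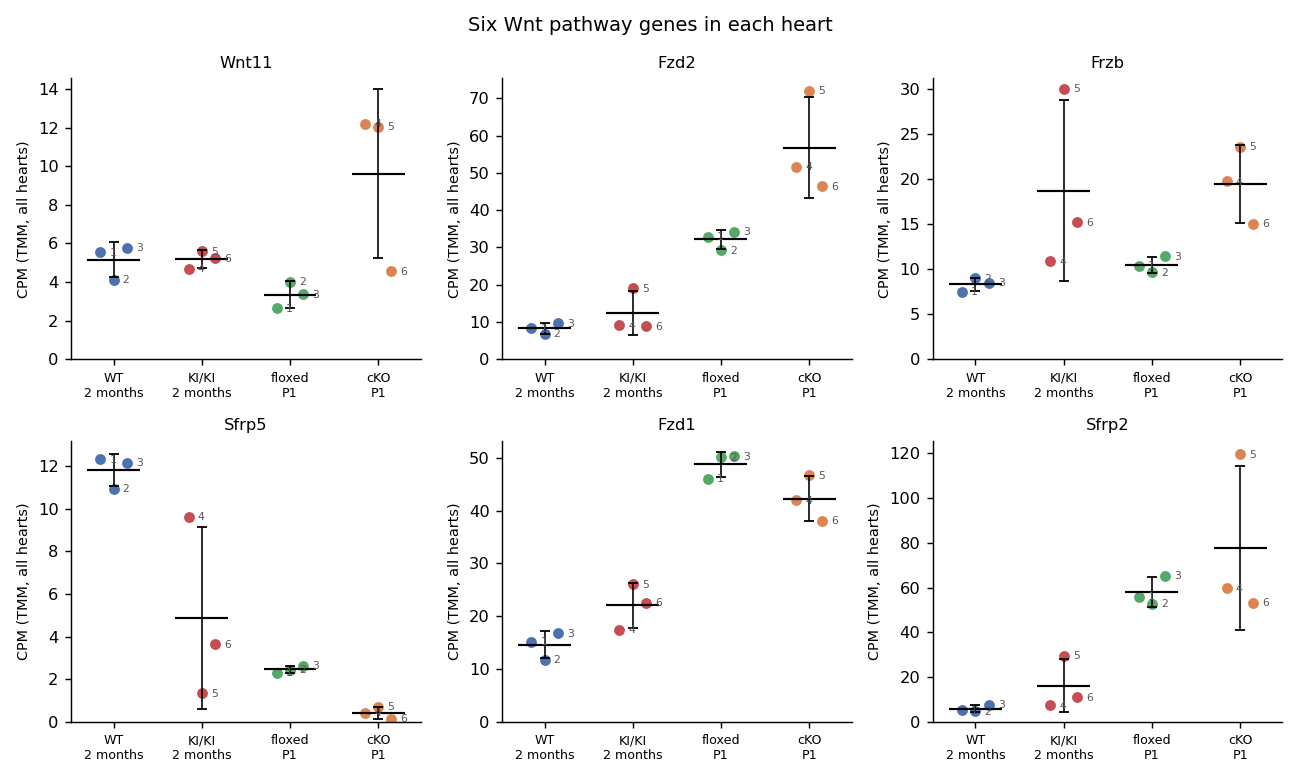
CPM of Wnt11, Fzd2, Frzb, Sfrp5, Fzd1 and Sfrp2 in each heart by group; points are hearts with their replicate number, lines are means and bars SD (n = 3), and each panel has its own axis from 0. Wnt11 of cKO 4 and 5 stands near 12 CPM while cKO 6 is at 4.55, and KI/KI 5 is the highest adult heart for Frzb, Fzd2, Fzd1 and Sfrp2 and the lowest for Sfrp5.

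The remaining parts of the pathway were followed at P1 through 5 gene lists. Over all genes tested, 8.79% were called higher and 6.84% lower in this comparison. Of 14 co-receptors, R-spondins and related genes, Lrp5 was higher (log2 fold change 0.46, standard error 0.08) and Znrf3, a ligase that removes Frizzled receptors from the membrane, was lower (-0.49, standard error 0.10). Among 15 genes of Wnt secretion and other extracellular modulators 3 were higher and none lower by edgeR. Wif1, a secreted Wnt-binding inhibitor, was at 9.94, 8.35 and 7.57 CPM in floxed and 16.2, 15.2 and 21.1 CPM in cKO hearts. Sost, which encodes the Lrp5 and Lrp6 antagonist sclerostin, was at 10.6, 12.9 and 12.8 CPM in floxed and at 76.2, 75.2 and 15.3 CPM in cKO hearts, again with cKO 6 nearest to the floxed hearts, and its call (adjusted p = 0.0406) held without cKO 6 alone. Sulf1, a heparan sulfate sulfatase, had a log2 fold change of 0.54 and an adjusted p of 0.0396, a call that also held without cKO 6 alone and reached 0.154 without floxed 1. Lrp5 and Znrf3 lost their calls without floxed 1, floxed 2 or cKO 5 (adjusted p up to 0.0909 and 0.0791), and Wif1 lost its call without floxed 1 or floxed 2 (up to 0.0572).

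Of 22 genes of the destruction complex and nuclear transducers, 1 was higher (Tle3) and 5 were lower, where 8.79% of all genes were higher and 6.84% lower. The co-repressor Tle2, the beta-catenin partner Bcl9, the ubiquitin ligase subunit Btrc and the transcription factor Tcf7l2 had the smallest p-values, with log2 fold changes of -0.56, -0.51, -0.41 and -0.39. The calls of all 4 were lost without floxed 1 or floxed 2, those of Tle2, Btrc and Tcf7l2 also without cKO 5 and that of Tcf7l2 also without cKO 4, with adjusted p-values up to 0.0765, 0.0914, 0.116 and 0.113. Among 16 feedback and target genes of beta-catenin, 2 were higher and 2 lower. Myc was at 14.1, 15.6 and 14.4 CPM in floxed and at 34.3, 30.7 and 26.5 CPM in cKO hearts (log2 fold change 1.05, adjusted p = 0.00696), a call lost without floxed 1 (adjusted p = 0.0524). Sp5, which rests on few reads, was at 0.204, 0.131 and 0.0849 CPM in floxed and 1.00, 1.36 and 0.339 CPM in cKO hearts (log2 fold change 2.68, adjusted p = 0.0314), a call that held without cKO 6 alone, with adjusted p-values up to 0.1075 without the others. Tnfrsf19 was at 21.4, 19.0 and 15.3 CPM in floxed and 6.45, 6.13 and 7.74 CPM in cKO hearts (log2 fold change -1.46, adjusted p = 0.00663), and it was called without each of the 6 hearts in turn. Znrf3 was the other one that fell. Axin2, the feedback gene most often read as a measure of beta-catenin activity, was at 6.84, 5.21 and 6.66 CPM in floxed and 5.39, 5.92 and 4.04 CPM in cKO hearts, which overlap; it was named after its values were seen. None of 15 planar polarity genes was called by edgeR. At an unadjusted p under 0.05 there were 7, against 5320 of all 15842 genes. Fuz had the smallest p (log2 fold change -0.52, adjusted p = 0.0573). Fuz passed with DESeq2 (adjusted p = 0.0234). The medians of the 5 lists, in this order, were -0.12, 0.23, -0.09, -0.09 and -0.21, against -0.01 over all genes.

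Homozygous knockin hearts were compared with WT hearts at 2 months. In this comparison 0 of 29 members passed an adjusted p of 0.05 in edgeR, as did 0% of all 15842 genes. At an unadjusted p under 0.05 there were 6 members, 5 higher and 1 lower, where 8.38% of all genes were higher and 6.62% lower. With DESeq2, which called 516 genes, Frzb and Sfrp2 were higher, and limma-voom called no gene. Groups did not overlap in 5 of 29 members, against 21.1% of all genes. Of the 29 log2 fold changes 17 were above 0 and 12 below, with a median of 0.20 against 0.00 over all genes.

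The members with an unadjusted p under 0.05 that were higher in KI/KI hearts include 3 of the 5 genes of the Sfrp and Frzb class. Frzb was at 7.51, 8.97 and 8.48 CPM in WT and at 10.9, 30.1 and 15.2 CPM in KI/KI hearts, with a log2 difference of 1.18 ± 0.36 (SE), with an adjusted p of 0.258. Sfrp2 was at 5.17, 4.64 and 7.66 CPM in WT and 7.50, 29.6 and 11.1 CPM in KI/KI hearts, a log2 difference of 1.47 ± 0.51 (SE), with an adjusted p of 0.287. Sfrp1 was at 31.0, 23.8 and 38.8 CPM in WT and 39.3, 61.5 and 38.6 CPM in KI/KI hearts (0.58 ± 0.24 in log2 units, SE, with an adjusted p of 0.326). Frzb did not overlap between the groups, whereas Sfrp1 and Sfrp2 did, and KI/KI 5 was the highest heart in each. Dkk3 was at 156, 187 and 215 CPM in WT and 225, 439 and 258 CPM in KI/KI hearts (0.73 ± 0.26 in log2 units, SE, with an adjusted p of 0.290). Fzd1 was at 15.2, 11.7 and 16.8 CPM in WT and 17.4, 26.1 and 22.6 CPM in KI/KI hearts (0.60 ± 0.19 in log2 units, SE, with an adjusted p of 0.265). In both genes all KI/KI hearts were above all WT hearts.

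In the other direction Wnt2b was at 5.39, 6.04 and 6.27 CPM in WT and at 4.46, 3.55 and 4.89 CPM in KI/KI hearts, without overlap (-0.45 ± 0.16 in log2 units, SE, with an adjusted p of 0.285). Sfrp5 had an unadjusted p of 0.0678 in edgeR but did not overlap either, at 12.3, 10.96 and 12.2 CPM in WT and 9.64, 1.33 and 3.65 CPM in KI/KI hearts. KI/KI 5 was the extreme heart in each of these 7 genes. Without it the log2 fold change of Frzb was 0.65, of Sfrp2 0.67, of Dkk3 0.38, of Sfrp1 0.32, of Fzd1 0.46, of Wnt2b -0.33 and of Sfrp5 -0.83. Wnt11, called at P1, was at 4.70, 5.60 and 5.25 CPM in KI/KI hearts, and its log2 fold change of 0.02 had a 95% interval from -0.38 to 0.41.

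The markers of other cells moved with KI/KI 5 too, and their part in these values was not tested. Summed fibroblast markers were at 2251, 2042 and 2465 CPM in WT and at 2446, 4463 and 2882 CPM in KI/KI hearts, and 8 of 8 had log2 fold changes above 0, none called. Atrial markers summed to between 3697 and 3808 CPM in WT and to 4081, 9648 and 6408 CPM in KI/KI hearts. Of these 4, 3 were above 0 and Myl7 below, and only Nppa, at 1950, 2220 and 2171 CPM in WT and 2616, 7542 and 4660 CPM in KI/KI hearts, had an unadjusted p under 0.05. Macrophage markers summed to 222, 173 and 246 CPM in WT and to 261, 285 and 260 CPM in KI/KI hearts, with 5 of 5 above 0, 4 at an unadjusted p under 0.05 and none called by edgeR. Cardiomyocyte markers summed to between 63803 and 72149 CPM in WT and to 63842, 45268 and 56554 CPM in KI/KI hearts.

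**Figure D4:**
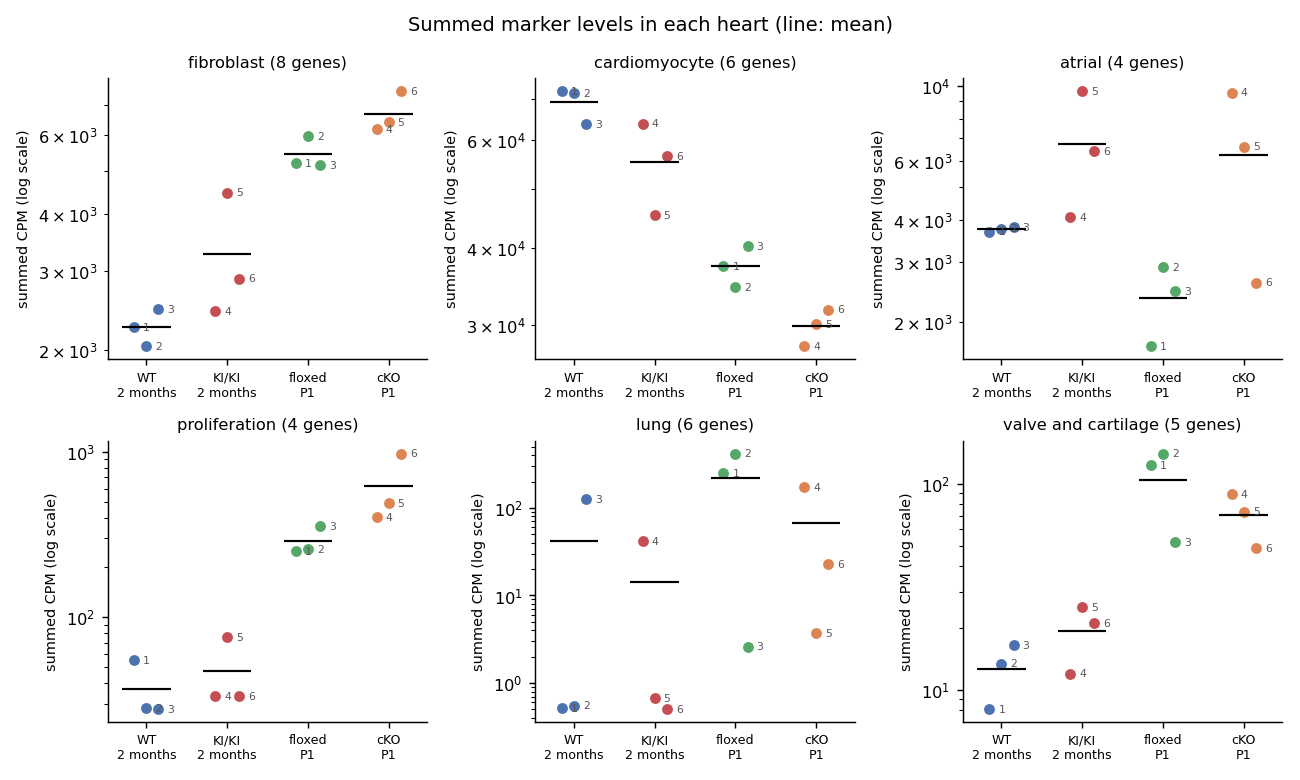
Summed CPM of 6 marker lists in each heart on a log axis; points are hearts with their replicate number and lines are means. Among adult hearts KI/KI 5 is highest in fibroblast, atrial and proliferation markers and lowest in cardiomyocyte markers, and among cKO hearts cKO 6 is lowest in atrial markers.

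None of the 5 pathway lists held a called gene in KI/KI hearts by edgeR. The genes with the smallest p in each were Lrp5 (log2 fold change 0.28, adjusted p = 0.253), Sulf1 (0.50, adjusted p = 0.295), Bcl9l (-0.32, adjusted p = 0.281), Bambi (0.41, adjusted p = 0.258) and Celsr3, a planar polarity cadherin (-0.69, adjusted p = 0.223). With DESeq2, Celsr3 passed (adjusted p = 0.0291). It was at 4.37, 4.24 and 4.69 CPM in WT and 3.27, 2.39 and 2.56 CPM in KI/KI hearts. The numbers of genes at an unadjusted p under 0.05 were 2 of 14 co-receptors and R-spondins, 3 of 15 extracellular modulators, 5 of 22 transducers, 4 of 16 targets and 4 of 15 planar polarity genes. Over all genes, 8.38% were higher and 6.62% lower at that limit. The medians of the lists in the same order were -0.02, 0.16, -0.01, 0.27 and -0.19, against 0.00 over all genes.

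Whether the genotype effect differed between the models was tested as an interaction over all 12 hearts. No member passed in edgeR, while 2.47% of all genes did, and 4 of 29 had an unadjusted p under 0.05, against 20.1% of all genes. Fzd1 came closest, with a difference of log2 fold changes, adult less P1, of 0.80 (standard error 0.22, adjusted p = 0.0775), followed by Wnt11 at -1.52 (standard error 0.45, adjusted p = 0.0982). Sfrp4 and Fzd4 were the others. DESeq2 called Fzd1 and Wnt11, and without cKO 6 edgeR called Wnt11. Frzb lay above the controls without overlap in both models, and Sfrp5 and Wnt2b lay below them in both. How many of all genes did so in both models was not counted. In each model alone, 21.1% (KI/KI against WT) and 38.7% (cKO against floxed) of all genes did not overlap.

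**Figure D5:**
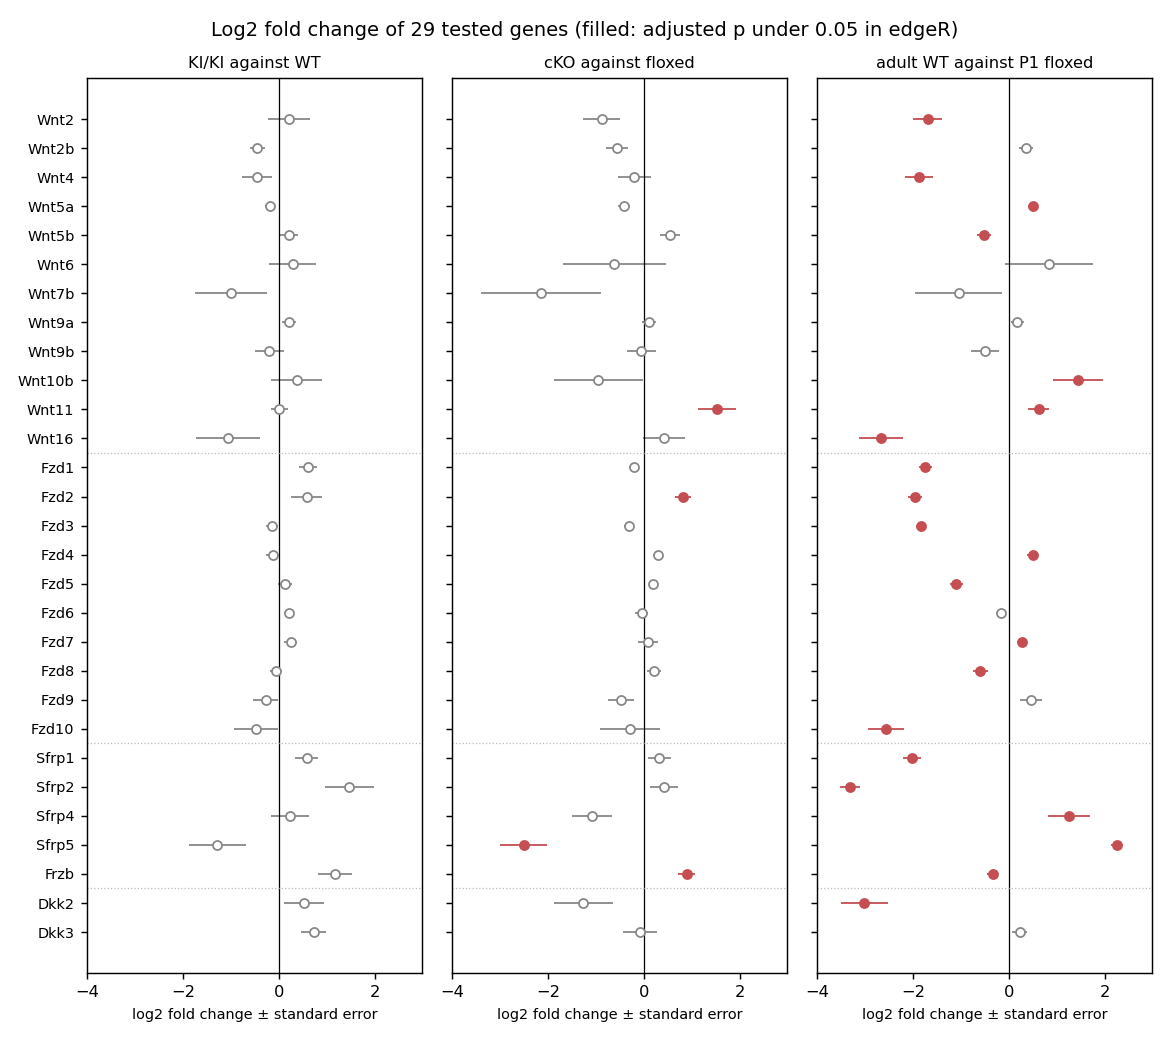
Log2 fold change ± standard error of the 29 tested genes (rows, in the order ligands, receptors, Sfrp and Frzb, Dickkopf) in 3 comparisons, KI/KI against WT, cKO against floxed and adult WT against P1 floxed; filled red points have an adjusted p under 0.05 in edgeR. The first panel has no filled point, the second has 4 and the third has 21.

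The same lists were counted between the ages, where 30.7% of all genes were higher and 32.2% lower. Among 14 co-receptors, R-spondins and related genes, 3 were higher and 8 lower in adult WT than in floxed hearts. The non-canonical co-receptors Ptk7, Ror1 and Ror2 fell by 2.83, 2.06 and 2.81 on the log2 scale, whereas Lrp5 was higher by 0.69. Of 15 extracellular modulators, 2 were higher and 9 lower, among them Gpc3 at -3.81, Sost at -2.72 and Sulf1 at -0.95, with Kremen1, a Dickkopf receptor, at 1.15. Of 22 transducers 3 were higher and 10 lower, with Lef1 at -3.14, Tcf7l2 at -1.01, Dvl1 at 0.76 and Pygo1 at 1.38. No feedback or target gene was called higher and 11 of 16 were called lower by edgeR, among them Lef1, Nkd1 (-1.51), Myc (-1.97) and Znrf3 (-0.82). The median was -1.27, with 2 of the 16 above 0 and 14 below. At an unadjusted p under 0.05, 1 was higher and 11 were lower, against 10572 of all 15842 genes in either direction. Axin2 was not called lower, at 6.61, 9.13 and 9.54 CPM in WT and 6.84, 5.21 and 6.66 CPM in floxed hearts, which overlap. Planar polarity genes were called in both directions, 6 higher and 5 lower of 15, with Intu at 2.58, Celsr3 at 2.49, Vangl2 at -2.32 and Prickle2 at -1.05. Proliferation markers summed to between 27.9 and 55.1 CPM in WT and between 251 and 354 CPM in floxed hearts, and their part in these values was not tested.

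Some members share exon bases with a gene on the opposite strand, and the strand setting of the counting was not given in the sources used here, so reads of the pair cannot be told apart without it. The shared part was 17.8% of the exon bases of Fzd5, 16.1% of Sfrp2, 8.80% of Wnt11, 6.62% of Wnt7b, 4.58% of Wnt5a and 3.16% of Fzd6.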

How the data were processed

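RNA of 12 mouse hearts, 3 per group, was analysed. Per the study's methods and the submitters' processing notes, the authors ran Trim Galore, STAR 2.7.2b (mm10) and HTSeq, and they deposited raw, unnormalized counts of reads per gene. Here edgeR 4.0.16 in R 4.3.3 was used, with limma 3.58.1 and DESeq2 1.42.0 as alternatives. Genes with 10 or more counts in at least 3 of 12 libraries were kept. Each comparison was fitted on its own 6 libraries with TMM factors and the robust quasi-likelihood test, and p-values were Benjamini-Hochberg adjusted over all 15842 genes. Standard errors and 95% intervals are from this fit. CPM are TMM-normalized over 12 libraries. Fold changes are log2. Exon lengths are from GENCODE on GRCm38. Scripts were tested on simulated counts.

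The members and gene lists were chosen with earlier results of these data known. The pathway lists and the marker lists for fibroblast, epicardium, endothelium, cardiomyocyte, macrophage, mural, lung, thymus, adipose, valve and cartilage, proliferation, atrial and Y-linked genes were written from general knowledge. All members are named or counted. Values in every heart are given for members called in any comparison and, for KI/KI, those with an unadjusted p under 0.05. Up to 4 genes are named per pathway list and comparison, the called ones with the smallest p, or the one with the smallest p where none was called. Sfrp5 and Wnt11 in KI/KI hearts were named after their values were seen. So were Fzd3, Fzd4, Sfrp1, Wnt5a, Wnt5b and Dkk2 at P1, Wnt2b and Wnt9b between the ages, the atrial and lung markers, Tle3 and Axin2. Each library is 1 mouse, and no pair of replicates held like counts (chi-square per degree of freedom from 19.3 to 138). KI/KI against WT and WT against floxed share the WT hearts, and cKO against floxed and WT against floxed share the floxed hearts. Alternatives were other tools, scalings, filters, a fit of all libraries, covariates for lung and Y-linked markers, a replicate block and each heart left out.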

Additional observations from a re-analysis of the deposited data

How the results depend on the processing

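Among the fold changes of named genes, 2 changed sign under an alternative, and neither was called. Wnt11 in KI/KI hearts ranged from -0.12 (without WT 2) to 0.11 (without WT 3), and Wnt7b in WT against floxed was at 0.47 with the lung markers as a covariate, from -1.05. In KI/KI against WT the count of members higher was 0 in edgeR and 2 with DESeq2, and it was 0 without each heart in turn; the count lower stayed at 0. In cKO against floxed, 3 were higher and 1 lower; DESeq2, upper quartile factors and the fit of all 12 libraries each gave 3 lower, a fold change above 2 gave 1 higher, and leaving out 1 heart gave 0 to 5 higher and 0 to 2 lower, with 0 in both directions without floxed 1 or floxed 2. In adult WT against P1 floxed, 7 were higher and 14 lower; upper quartile factors and the fit of all 12 libraries gave 4 higher, a fold change above 2 gave 3, and leaving out 1 heart gave 3 to 8 higher and 13 to 14 lower. The count of members whose effect differed between models was 0, with 2 by DESeq2 and 0 to 1 with 1 heart left out. Fits without a heart hold fewer samples; the cause of the other shifts was not tested. Upper quartile factors moved the median of all genes in WT against floxed to -0.14 from -0.05. Of the alternatives for named genes, 131 lost a call and 15 gained one.

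WT and floxed hearts share replicate numbers 1 to 3, but these are different animals. The deviations of hearts with the same number correlated at -0.16, -0.24 and -0.43, and those with unlike numbers between -0.21 and 0.34. Deviations from a mean of 3 hearts depend on each other, so these values cannot show whether hearts with the same number are related. With the replicate number as a block, 3 members were higher and 13 lower.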

Other observations

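Wnt7a lay just outside the limit on low counts, with 10 or more counts in 2 libraries, and Wnt7b just inside with 4. Wnt7a had 25 and 26 counts in cKO 4 and cKO 5 and none in cKO 6, and it was at 0.164 CPM or less in each of the other 9 hearts. It was named after its values were seen and has no test.

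Counts of marker genes called by edgeR at an adjusted p under 0.05 were 0 in every list in KI/KI against WT. Over all genes, 8.79% were called higher and 6.84% lower in cKO against floxed hearts. In WT against floxed hearts these shares were 30.7% and 32.2%. In cKO against floxed hearts 3 of 5 macrophage markers, 2 of 6 mural, 2 of 4 proliferation, 1 of 6 endothelial, 1 of 5 valve and cartilage and 1 of 4 atrial markers were higher, 2 of 6 cardiomyocyte markers were lower, and 0 of 7 epicardial, 4 lung, 1 thymus, 4 adipose and 4 Y-linked markers were called. In WT against floxed hearts 6 of 6 cardiomyocyte, 5 of 5 macrophage, 4 of 6 mural, 3 of 4 adipose and 2 of 4 atrial markers were higher, 4 of 5 valve and cartilage, 4 of 4 proliferation and 2 of 4 lung markers were lower, endothelial and Y-linked markers had 1 in each direction, and the 1 thymus marker was not called.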
